A study of Mus musculus with 10 samples.

Results

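Klf2, Klf4 and Klf5 are the Krüppel-like factor genes of mouse pluripotent cells, and the open chromatin around them was followed from fibroblasts to embryonic stem cells. Every listed ATAC-seq peak that overlapped one of these 3 genes or the 100 kb on either side of it was taken, in each of 10 libraries. This gave 327 of 685776 listed peaks. Overlapping peaks of different libraries were merged into elements, of which 97 lay near the 3 genes among 208851 in the genome. Klf2 had 35, Klf4 23 and Klf5 39.

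The libraries came from 5 stages, with 2 libraries each, all of C57BL/6 x 129 strain background. Fibroblasts of embryos (MEF) were unsorted, grown in MEF medium without doxycycline, and carried the genotype OKSM Col1a1/M2rtTA ROSA26, that is, a reprogramming cassette inserted at Col1a1, which holds Klf4 beside Oct4, Sox2 and Myc, and a doxycycline-dependent activator inserted at Rosa26. The same cells were taken after 3 days (DAY3, unsorted), 6 days (DAY6) and 9 days (DAY9) in ESC medium with 1 ug/ml doxycycline and 50 ug/ml ascorbic acid. DAY6 and DAY9 cells were sorted for the surface marker SSEA1. Embryonic stem cells (ESC) were the line V6.5 without the cassette or doxycycline, unsorted and grown on irradiated feeder cells, so ESC differed from the other stages in genotype as well as in state, and sorting coincided with DAY6 and DAY9. Every population was a bulk one, in which a weak peak in all cells and a strong peak in some of them cannot be told apart.

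The lists held 45497 to 88980 peaks. Read depth is unknown, and the background pileup recovered from the deposited values, a measure of relative depth, ran from 2.327 at DAY6 replicate 2 to 8.322 in MEF replicate 2. Summit heights of the libraries of a stage differed by 1.33 times counting noise in DAY3 and 1.42 times in DAY9, against 3.61 to 8.11 times in the other stages, so both pairs enter averages and tests as single samples, and they carry no replicate error. Peaks in both libraries within 1 kb of a gene start were found for 2 of 8 pluripotency markers in MEF and 8 in ESC, and for 8 of 8 fibroblast markers in MEF and 5 in ESC. For other cell types, MEF and ESC had 0 and 4 of 4 epithelial, 0 and 1 of 3 endothelial, 1 and 2 of 3 blood and 1 and 3 of 3 trophoblast markers. A peak at a start thus did not by itself mark a cell type. The 2 pluripotency markers in MEF were Pou5f1 and Sox2, whose sequences the cassette also carries. The 5 fibroblast markers in ESC were Col1a1, Col1a2, Twist1, Prrx1 and Snai2, and the part of the feeder cells in the ESC lists was not tested.

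Krüppel-like factors bind GC-rich and CACCC-like DNA through zinc fingers at the end of the protein. In mouse embryonic stem cells Klf2, Klf4 and Klf5 occupy many of the same sites and can partly replace each other in self-renewal. Klf4 is one of the reprogramming factors and a target of LIF and Stat3 signalling, Klf2 is linked to the ground state under inhibition of Mek, and Klf5 is also needed in the early embryo and in epithelia. Enhancers far downstream of Klf4 are known from stem cells. Open elements away from a gene start are candidates for such enhancers, and a peak alone does not show which gene an element acts on.

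The starts of the 3 genes were open at every stage, and the promoter sequences are shown because they lie under these peaks. RefSeq on GRCm38.p6 holds promoters for Klf2 and Klf4, and the 250 bases before each start are printed 5′ to 3′ on the gene's strand, with every GC box (GGGCGG on either strand, the core bound by Sp and Krüppel-like factors) in capitals. The Klf2 stretch is chr8:72318812-72319061 on the plus strand, and the Klf4 stretch is chr4:55532476-55532725 on the minus strand.
Klf2: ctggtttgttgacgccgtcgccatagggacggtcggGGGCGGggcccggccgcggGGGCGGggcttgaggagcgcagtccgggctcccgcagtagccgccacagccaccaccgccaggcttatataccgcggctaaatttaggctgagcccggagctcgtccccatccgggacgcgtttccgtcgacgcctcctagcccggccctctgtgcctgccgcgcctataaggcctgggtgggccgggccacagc
Klf4: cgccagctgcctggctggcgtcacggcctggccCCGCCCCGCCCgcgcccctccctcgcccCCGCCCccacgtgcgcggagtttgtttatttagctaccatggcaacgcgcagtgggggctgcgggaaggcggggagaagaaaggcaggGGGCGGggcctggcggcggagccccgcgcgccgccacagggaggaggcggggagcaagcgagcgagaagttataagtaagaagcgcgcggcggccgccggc
The Klf2 stretch held 2 GC boxes, which begin 214 and 195 bases before the start. The Klf4 stretch held 4, which begin 217, 212, 189 and 101 bases before the start, and those at 217 and 212 overlap by a base. Of 32536 promoter stretches of the same length, 33.0% held at least 1 GC box. G and C made up 71.2% of the Klf2 and 74.0% of the Klf4 stretch, against a median of 52.4%. Neither stretch held the longer Klf words GGGTGTGG (in 3.2% of all promoters) or GGGCGTGG (4.8%), the octamer word ATGCAAAT (1.6%), the Sox word ACAAAG (16.5%), the Esrrb word TCAAGGTCA (0.4%), the Stat word TTCNNNGAA (7.0%), the AP-1 word TGANTCA (6.7%) or the Tead word GGAATG (12.6%). Both strands were searched, and the GC box was added after the sequences had been seen.

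At Klf2 (chr8:72319062-72321654), the element over the start (chr8:72318545-72319586) had a fold enrichment, the authors' ratio of a peak to its local background, of 12.6 and 9.80 (MEF), 9.40 and 10.2 (DAY3), 8.92 and 11.6 (DAY6), 10.2 and 8.22 (DAY9) and 9.52 and 9.02 (ESC). Pairs of values are given as replicate 1 and then replicate 2 throughout, and where a library had several peaks in an element the highest fold is given. At Klf4 (chr4:55527137-55532475), the element over the start (chr4:55532148-55533478) had folds of 7.26 and 4.58 (MEF), 5.00 and 4.91 (DAY3), 6.70 and 6.93 (DAY6), 8.20 and 7.12 (DAY9) and 5.74 and 5.14 (ESC). It also covers the start of the long noncoding RNA gene Gm12506. Klf5 (chr14:99298691-99313412) was taken to start at its lower coordinate, and the element there (chr14:99298249-99299606) had folds of 12.2 and 9.08 (MEF), 12.9 and 11.1 (DAY3), 14.1 and 17 (DAY6), 16.9 and 17 (DAY9) and 16.5 and 12.9 (ESC). Both ESC values lay below both MEF values at Klf2, within the MEF values at Klf4 and above both MEF values at Klf5. The folds come from lists of different depth, so these orders are a description with no test.

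Away from the starts the 3 loci differed more. An element counts as gained in ESC against MEF if it was listed in both ESC libraries and in neither MEF library, and as lost if the reverse held. Of the 97 elements, 29 (29.9%) were gained, beside 15.9% of all regions of the genome, and 7 (7.22%) were lost, beside 11.1% of all regions. Klf5 had 15 gained and 1 lost element, Klf2 had 9 and 4, and Klf4 had 5 and 2. Set among the windows of 21883 protein-coding genes, for which the median was 3 gained elements, 99.1% of genes had fewer than Klf5, 92.7% fewer than Klf2 and 68.3% fewer than Klf4. These ranks are not adjusted for the number of elements in a window, for which the median was 26. In that number, 83.9% of genes had fewer than Klf5, 75.5% fewer than Klf2 and 39.0% fewer than Klf4. For lost elements the median was 2, and 72.8% of genes had fewer than Klf2, 42.5% fewer than Klf4 and 24.7% fewer than Klf5. Peaks in all 10 libraries were found at 9 of the 97 elements (9.28%, beside 7.35% of all regions). At 37 elements a single library had a peak (38.1%, beside 37.9%). Since a permutation test of 2 against 2 libraries cannot give a two-sided p-value below 0.333, these counts have no test. Peaks in 1 library of a pair weigh on them: without ESC replicate 2 Klf5 had 24 gained elements, but with equal numbers of peaks taken from each list it had 9, and without MEF replicate 1 Klf2 had 7 lost ones and without MEF replicate 2 Klf4 had 6, and with the higher-scoring 50% of each list Klf2 had 4 gained elements and 1 lost.

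**Figure D1:**
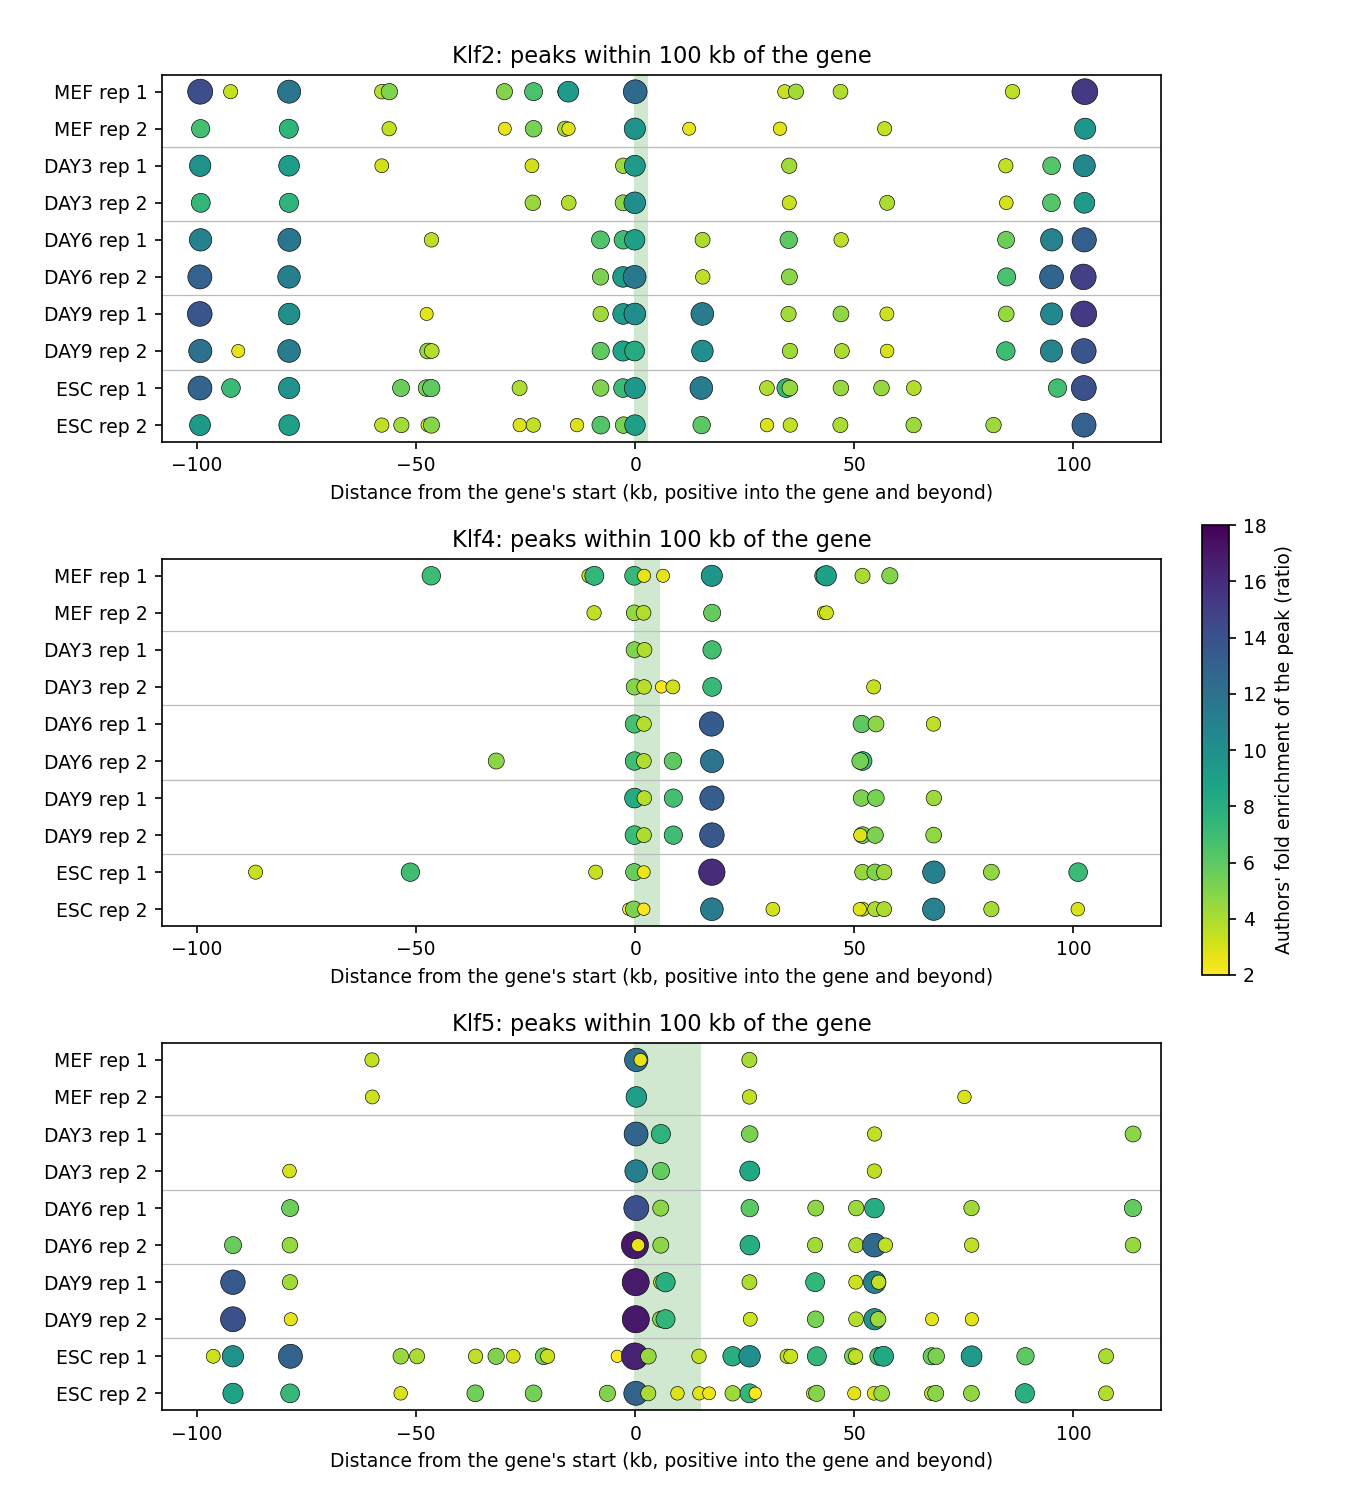
Each point is a listed peak, placed by the distance of its middle from the gene's start (x axis, kb) and by library (y axis), with size and colour for the authors' fold enrichment; the green band is the gene. Klf5 has few points in the MEF libraries (4 and 4 peaks) and many in the ESC libraries (28 and 24), while the peaks over the 3 starts are present in every library.

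The 29 gained elements were first listed in both libraries at different stages. The lists behind this order held from 45497 (DAY3 replicate 2) to 88980 (ESC replicate 2) peaks. Some first listings rest on peaks of low score, as at the Klf2 element 47.4 kb before the start (percentile 2.14 in DAY9 replicate 1). A peak in both libraries was first present at DAY3 for 1 of them (3.45%, beside 8.69% of all gained regions), at DAY6 for 6 (20.7%, beside 14.7%), at DAY9 for 5 (17.2%, beside 15.7%) and in ESC alone for 17 (58.6%, beside 60.9%). No peak in any DAY3, DAY6 or DAY9 library was listed at 15 of the 29 (51.7%, beside 49.6%). Read against the genome, the order of first listing at the 3 loci was close to that of gained regions in general.

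From stage to stage, each step was read against its share of all regions. DAY3 against MEF gained 5 of the 97 elements (5.15%, beside 5.43%) and lost 7 (7.22%, beside 10.4%). DAY6 against DAY3 gained 6 (6.19%, beside 5.29%) and lost 1 (1.03%, beside 1.5%). DAY9 against DAY6 gained 3 (3.09%, beside 5.39%) and lost 1 (1.03%, beside 0.956%). The step from DAY9 to ESC was the largest gain, with 15 elements (15.5%, beside 9.1%), and 6 were lost (6.19%, beside 9.24%). DAY9 against MEF gained 18 (18.6%, beside 16.8%) and lost 9 (9.28%, beside 11%). Elements listed in both libraries numbered 9, 9, 10, 13 and 15 at Klf2, 6, 3, 4, 7 and 9 at Klf4, and 3, 4, 9, 10 and 17 at Klf5, for MEF, DAY3, DAY6, DAY9 and ESC. Klf5 thus began with the fewest and ended with the most. Over all regions the same shares were 22.1%, 16.9%, 21.7%, 30.8% and 28.2%.

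At Klf2, the gained elements that appeared first were the 3 nearest to the gene. The element 2.7 kb before the start (chr8:72315953-72316731) was the single one of the 29 gained elements already listed in both DAY3 libraries. It had no MEF peak and folds of 4.36 and 4.70 at DAY3, 6.90 and 9.13 at DAY6, 9.23 and 8.63 at DAY9, and 7.12 and 5.22 in ESC. The element 7.9 kb before the start (chr8:72310788-72311633) had no MEF or DAY3 peak and folds of 6.41 and 5.14 at DAY6, 4.29 and 5.88 at DAY9, and 5.11 and 6.35 in ESC. Downstream, the element 15.1 kb after the start (chr8:72333473-72334873) was also first listed at DAY6, with folds of 4.04 and 3.61 at low score percentiles (25.2 and 5.03), and had 11.4 and 10.1 at DAY9 and 11.4 and 6.04 in ESC. These 3 elements lie between genes. With equal numbers of peaks or the top 50% of each list, the one at 15.1 kb was listed in 4 libraries in place of 6, and its DAY6 peaks were gone. A pair of elements farther upstream was later or less regular. The one at 47.4 kb (chr8:72271074-72272171) had folds of 2.64 and 4.62 at DAY9 and 5.26 and 2.64 in ESC. The one at 46.5 kb (chr8:72272304-72272817) had 3.59 at DAY6 replicate 1, 3.81 at DAY9 replicate 2 and 5.88 and 4.93 in ESC. The element 53.4 kb before the start (chr8:72265327-72265981) had ESC peaks alone, with folds of 5.61 and 4.19. So did those 26.4 kb before and 30.1 and 63.5 kb after the start, with folds of 2.86 to 4.34, the last 2 inside Eps15l1, which codes for an endocytic adaptor.

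The 4 lost elements of Klf2 (11.4% of its 35, beside 11.1% of all regions) lay upstream of the start. Elements listed in a single MEF library alone lay downstream, at 12.3, 33, 36.7, 56.9 and 86.1 kb, so the side depends on the rule of both libraries. The DAY3 lists were the shortest, with 45766 and 45497 peaks, and the part of list length in the absence of later peaks was not tested. The elements 56.1, 29.8, 15.9 and 15.2 kb before the start had peaks in both MEF libraries, with folds of 2.57 to 9.27, and none in DAY6, DAY9 or ESC. At the element 15.2 kb before the start (chr8:72303568-72304083) DAY3 replicate 2 still had a peak, with a fold of 3.83 after 9.27 and 2.79 in MEF. A further upstream element, at 23.3 kb (chr8:72295287-72296186), had folds of 6.57 and 5.26 in MEF, 3.17 and 4.47 at DAY3 and 3.54 in ESC replicate 2, with no DAY6 or DAY9 peak.

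Elements with peaks in both libraries of an intermediate stage and in no MEF or ESC library are called transient. They made up 7 of the 97 elements (7.22%, beside 9.61% of all regions), and the strongest lay in the far downstream part of the Klf2 window, inside Eps15l1. The element 95 kb after the Klf2 start (chr8:72413745-72414389) had folds of 6.25 and 6.31 at DAY3, 10.9 and 12.9 at DAY6, and 10.7 and 10.8 at DAY9. ESC replicate 1 had a separate peak close by, at 96.4 kb, with a fold of 6.86. The element at 84.7 kb (chr8:72403230-72404265) had folds of 3.49 and 3.03, 5.60 and 6.61, and 4.56 and 7.01 in the same order. A weaker element at 57.5 kb had a peak in both DAY9 libraries and in DAY3 replicate 2, with folds of 2.99 to 3.99. These positions are nearer to the start of Eps15l1, which has an element with peaks in all 10 libraries (chr8:72420741-72422268), than to Klf2. The other always open elements of the Klf2 window lay over the start of Fam32a and over the lower-coordinate edge of Ap1m1.

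At Klf4, the single element that lies wholly inside the gene is described apart, because the cassette carries Klf4 sequence. It (chr4:55529865-55531017) had peaks in all 10 libraries, with folds of 2.66 and 3.82 (MEF), 3.88 and 3.64 (DAY3), 3.77 and 3.90 (DAY6), 3.70 and 3.98 (DAY9) and 2.48 and 2.15 (ESC). The 8 libraries with the cassette lay above both ESC libraries without it. Fragments of the cassette and of the gene cannot be told apart in these lists, so the openness of the gene body was not compared. The element is still held in the counts above and in the peak numbers tested below. Without it Klf4 had 22 elements, with 5, 2, 3, 6 and 8 listed in both libraries for MEF, DAY3, DAY6, DAY9 and ESC. The element was neither gained nor lost. Whether the position is exonic is not in the gene table used here, which gives gene spans only. The element over the start overlaps the gene in part and may share this limit.

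Outside the gene, all 5 gained elements of Klf4 lay downstream, between 54.8 and 101.1 kb after the start, in a stretch without another protein-coding gene. The element 68.2 kb after the start (chr4:55463849-55464789) had a peak in DAY6 replicate 1, with a fold of 3.59, in both DAY9 libraries, with 4.32 and 4.66, and in both ESC libraries, with 11 and 10.9. Both ESC values were far above the 3 earlier ones, and this was the gained element of highest mean score percentile in ESC among the 29. Nearer to the gene, the element at 54.8 kb (chr4:55477191-55478238) had folds of 3.35 at DAY3 replicate 2, 4.69 at DAY6 replicate 1, 5.30 and 5.14 at DAY9, and 5.01 and 3.94 in ESC. The elements at 56.8 kb (chr4:55475354-55475978), 81.3 kb (chr4:55451008-55451370) and 101.1 kb (chr4:55431183-55431584) had ESC peaks alone, with folds of 4.32 and 3.98, 4.68 and 4.18, and 7.14 and 2.94. A neighbouring element at 51.6 kb (chr4:55480273-55481377) is not counted as gained because MEF replicate 1 had a peak, with a fold of 4.08. It had no DAY3 peak and folds of 5.98 and 7.22 at DAY6, 5.16 and 5.38 at DAY9, and 4.49 and 3.25 in ESC.

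The element 17.4 kb downstream of the Klf4 start (chr4:55514568-55515487) had peaks in every library and the highest fold of all Klf4 elements in each of them. Its folds were 9.68 and 5.79 (MEF), 6.82 and 7.23 (DAY3), 13.4 and 11.8 (DAY6), 13.3 and 13.7 (DAY9) and 16 and 11.4 (ESC). All DAY6, DAY9 and ESC values lay above all MEF and DAY3 values. The lists differ in depth, and its part in this order was not tested. Between these groups of elements, a pair at 43.0 and 43.6 kb after the start was lost, with MEF folds of 6.12 and 2.79 and of 8.83 and 3.22 and no later peak. The transient element of Klf4, 8.7 kb after the start and just beyond the end of the gene (chr4:55523363-55524185), had folds of 3.21 at DAY3 replicate 2, 5.98 at DAY6 replicate 2, and 6.76 and 6.88 at DAY9. Upstream of Klf4, over the span of the noncoding gene Gm12506, there were 7 elements besides the one at the start. Of these, 6 had a peak in 1 library only, beside 37.9% of all regions. The exception, 9.2 kb before the start, had folds of 7.47 and 3.54 in MEF and 3.35 in ESC replicate 1.

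At Klf5, both fibroblast libraries had 4 peaks in the whole window, and the gained elements lay on both sides of the gene, 4 before and 11 after the start. Upstream, the 2 with the highest scores in ESC lay inside the neighbouring gene Pibf1. The element 91.8 kb before the start (chr14:99206559-99207213) had folds of 5.71 at DAY6 replicate 2, 13.6 and 14.0 at DAY9, and 9.87 and 8.76 in ESC. The element at 78.8 kb (chr14:99219516-99220342) had 3.03 at DAY3 replicate 2, 5.61 and 4.51 at DAY6, 4.20 and 2.63 at DAY9, and 13.0 and 7.28 in ESC. The first of these was thus highest in DAY9 and the other in ESC.

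Downstream of Klf5, the element 41.4 kb after the start (chr14:99339408-99340693) had folds of 4.72 and 4.21 at DAY6, 7.45 and 5.26 at DAY9, and 7.49 and 4.99 in ESC. The element at 22.2 kb (chr14:99320697-99321170) had ESC peaks alone, with folds of 7.89 and 4.34. An adjacent pair followed. The element at 54.6 kb (chr14:99352954-99353695) had folds of 3.49 and 3.51 at DAY3, 8.06 and 12.6 at DAY6, 11.1 and 9.77 at DAY9 and 3.06 in ESC replicate 2, with no peak in ESC replicate 1. The element at 56.2 kb (chr14:99353896-99355933) is a merge of peaks at different positions. Peaks at 55.5 to 55.6 kb had folds of 3.49 and 4.34 at DAY9 and 6.53 in ESC replicate 1. ESC replicate 1 had a further peak at 56.7 kb with a fold of 8.39, ESC replicate 2 a single broad peak with 4.52, and DAY6 replicate 2 a peak at 57.1 kb with 3.57. The element at 54.6 kb was thus listed in all 6 intermediate libraries and 1 ESC library, and the one at 56.2 kb in 3 intermediate libraries and both ESC libraries.

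The other gained elements of Klf5 include one at 50.0 kb, where peaks at 50.3 to 50.4 kb had folds of 4.41 and 3.91 at DAY6, 3.25 and 3.78 at DAY9 and 3.51 in ESC replicate 1. ESC replicate 1 had a further peak at 49.7 kb with 5.39, and ESC replicate 2 a broad peak across both with 2.71. Another lay at 76.8 kb (folds 4.27 and 3.61 at DAY6, 2.75 at DAY9 replicate 2, 9.37 and 4.65 in ESC). The element at 67.6 kb had a fold of 2.63 at DAY9 replicate 2 and 5.75 and 3.44 in ESC. Those 53.5 and 36.5 kb before and 3.0, 14.6, 68.6, 88.9 and 107.5 kb after the start had ESC peaks alone, with folds of 2.76 to 7.86. The always open element 26.1 kb downstream (chr14:99324347-99325202) had folds of 4.08 and 3.54 (MEF), 5.23 and 8.45 (DAY3), 6.06 and 8.12 (DAY6), 3.96 and 3.22 (DAY9) and 10.1 and 7.44 (ESC).

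Inside the Klf5 gene, away from the start, the elements listed in both libraries of a stage differed between ESC and the intermediate stages. The element 3.0 kb after the start (chr14:99301459-99301904) had ESC peaks alone, with folds of 4.45 and 4.06. The element at 5.8 kb (chr14:99304240-99304842) was transient, with folds of 7.64 and 5.82 at DAY3, 4.81 and 4.81 at DAY6, and 3.68 and 4.83 at DAY9. The element at 6.9 kb (chr14:99305310-99305886) had DAY9 peaks alone, with folds of 7.87 and 7.52. Klf5 is not part of the cassette, so these peaks have no such second source. The remaining transient element, 113.6 kb after the start, had folds of 4.76 at DAY3 replicate 1 and 5.84 and 4.51 at DAY6. The lost element of Klf5, 60.0 kb before the start inside Pibf1, had MEF folds of 3.40 and 3.22. Of the 17 Klf5 elements with a peak in a single library, 9 belonged to ESC replicate 1 and 6 to ESC replicate 2. The ESC lists were the longest, with 86585 and 88980 peaks. The share of each library among single-library regions of the genome was not computed, so this count is a description only.

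**Figure D2:**
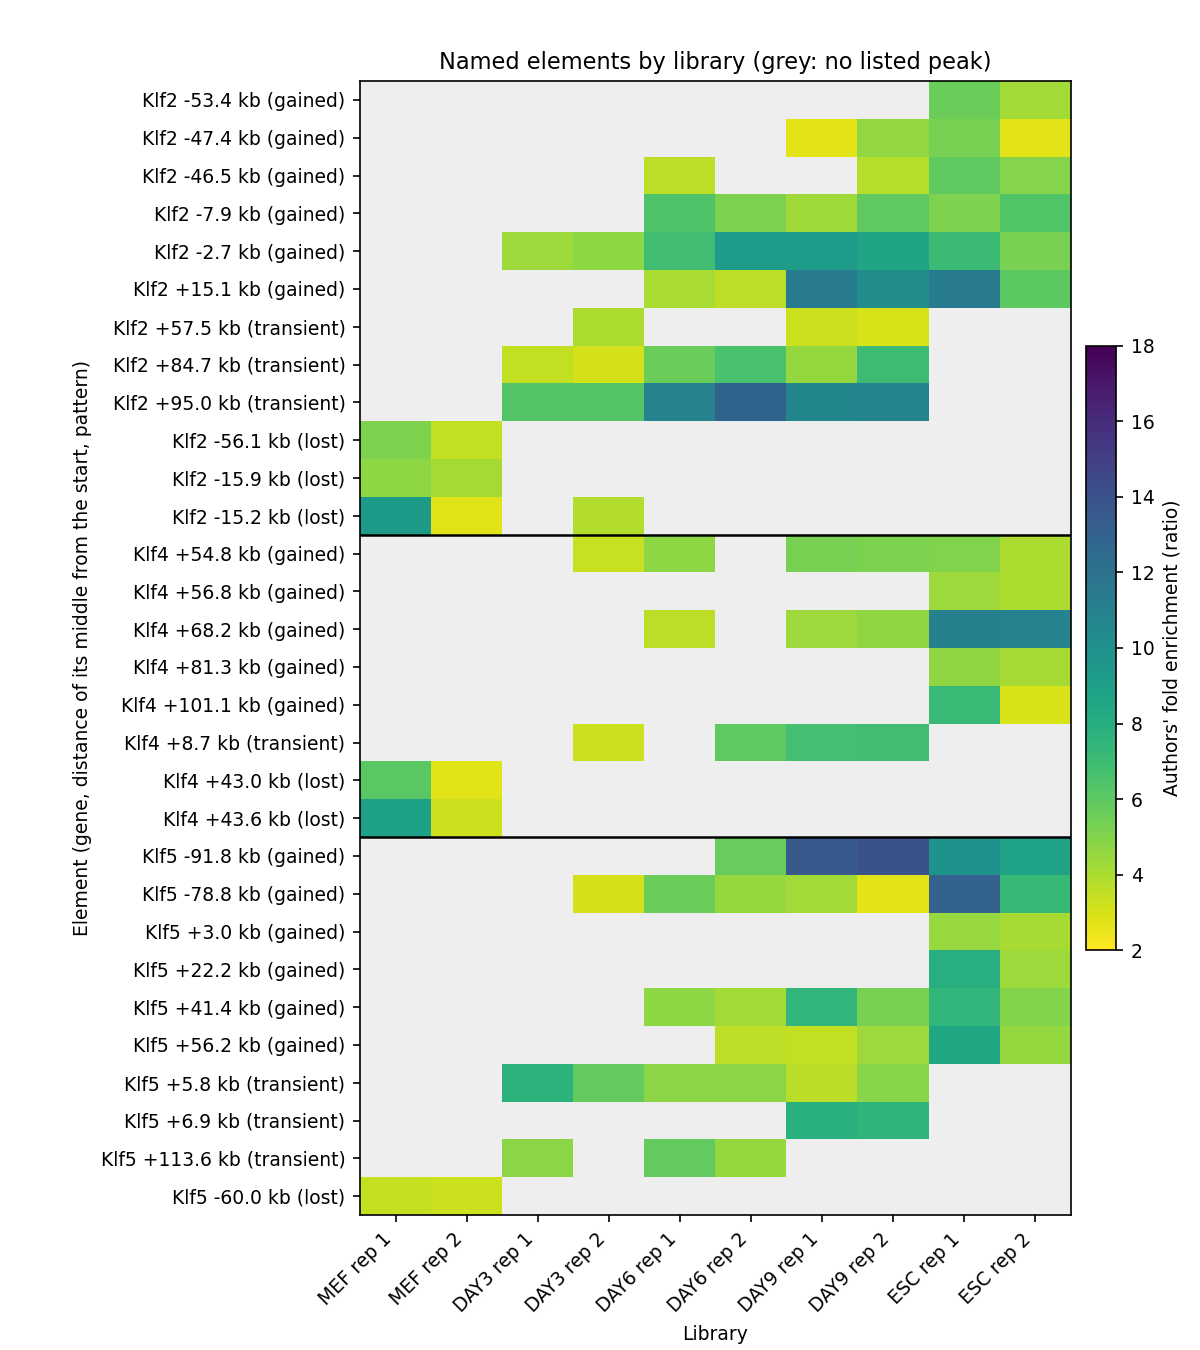
Rows are the named gained, transient and lost elements of each gene, labelled by the distance of their middle from the start in kb, columns are the 10 libraries, and colour is the authors' fold enrichment, with grey where no peak was listed. By the rule that sorts the rows, gained elements are filled in ESC and transient elements in the middle columns. The Klf2 element at -2.7 kb is the only gained row filled in both DAY3 columns, and the transient row with the highest folds is the Klf2 element at +95 kb.

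To test whether the neighbourhood of a gene changed as a whole, the peaks within 100 kb were counted for every protein-coding gene, scaled to the mean list length and compared between stages with limma on log2(scaled peaks + 1). For Klf5 the scaled numbers were 3.68 and 4.27 (MEF), 7.49 and 7.54 (DAY3), 9.47 and 14.0 (DAY6), 8.82 and 10.5 (DAY9) and 22.2 and 18.5 (ESC). MEF libraries were lowest and ESC libraries highest, without overlap with any other stage, and DAY6 and DAY9 overlapped. The mean rose from 3.98 ± 0.41 (SD, n = 2) in MEF to 20.3 ± 2.60 (SD, n = 2) in ESC, a log2 difference of 2.10 (95% interval 1.58 to 2.61, limma, adjusted p = 0.000478), and 99.8% of the 17324 genes tested had a smaller difference. Over all genes, 8.38% were called higher (1451) and 10.8% lower (1871) in ESC against MEF, with a median difference of -0.08. Without scaling to list length the median was 0.24 and the split 2735 to 483. Leaving out 1 library gave 735 to 1459 genes higher and 760 to 2315 lower, with the fewest of both without MEF replicate 2, and with 947 and 841 higher without ESC replicates 1 and 2. Lower calls numbered 1243 without MEF replicate 1 and 1018 without ESC replicate 2.

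For Klf2 the scaled numbers were 13.8 and 12.8 (MEF), 15.0 and 16.6 (DAY3), 12.6 and 11.6 (DAY6), 11.5 and 13.1 (DAY9) and 15.0 and 14.6 (ESC). The log2 difference between ESC and MEF was 0.15 (95% interval -0.25 to 0.55, limma, adjusted p = 0.607). For Klf4 they were 10.1 and 6.40 (MEF), 4.50 and 9.04 (DAY3), 6.32 and 8.14 (DAY6), 6.17 and 7.01 (DAY9) and 9.50 and 9.25 (ESC). The log2 difference was 0.19 (95% interval -0.39 to 0.77, limma, adjusted p = 0.645), and it was -0.44 with a window of 50 kb, and -0.10 without MEF replicate 2, so no direction can be given for Klf4. At both genes the gained and lost elements described above stand beside totals that did not pass the test.

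All 6 comparisons come from 1 fit, whose residual spread is taken from MEF, DAY6 and ESC (3 residual degrees of freedom). To these limma added 10.72 prior degrees of freedom drawn from all genes tested. The 5 comparisons other than ESC against MEF have a stage counted as 1 sample on at least one side, and DAY3 and DAY9 are assumed to vary alike. In these the test called none of the 3 genes. For Klf5 the log2 difference was 1.10 for DAY9 against MEF (95% interval 0.47 to 1.74, limma, adjusted p = 0.0591, with 2.11% of genes called higher and 1.08% lower), 0.78 for DAY3 against MEF (limma, adjusted p = 0.159, with 0.306% called higher and 0.248% lower), 0.56 for DAY6 against DAY3 (limma, adjusted p = 0.610, with 0.0289% called higher), -0.23 for DAY9 against DAY6 (limma, adjusted p = 0.999) and 1.00 for ESC against DAY9 (95% interval 0.36 to 1.63, limma, adjusted p = 0.146). No gene at all was called by limma for DAY9 against DAY6 or for ESC against DAY9, where 340 and 3029 genes had an unadjusted p under 0.05. With DAY3 and DAY9 libraries counted separately, the differences of DAY9 and DAY3 from MEF and of ESC from DAY9 passed at Klf5 (limma, adjusted p = 0.00321, 0.0190 and 0.00940). Those pairs differed by little more than counting noise, so these p-values may count repeats of 1 sample as 2 samples. The lowest adjusted p over the 6 comparisons was 0.573 for Klf2 and 0.487 for Klf4.

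**Figure D3:**
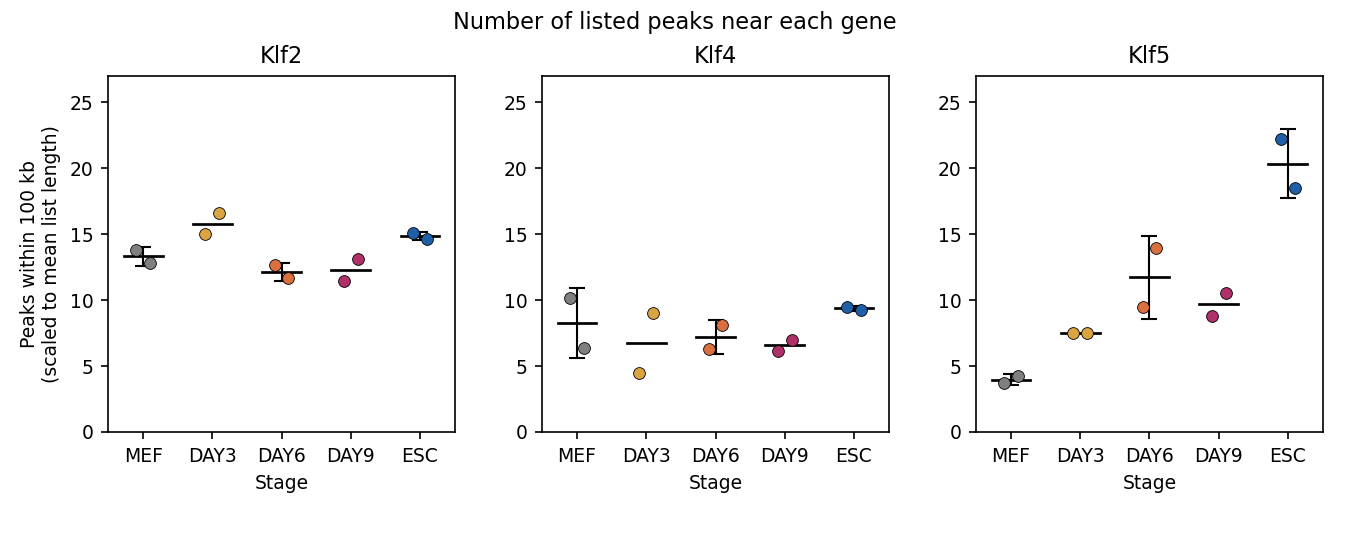
Points are the 10 libraries, the y axis is the number of listed peaks within 100 kb of the gene scaled to the mean list length, bars are stage means, and whiskers are the SD of 2 libraries (none for DAY3 and DAY9, counted as 1 sample each). Klf5 goes from 3.68 and 4.27 in MEF to 22.2 and 18.5 in ESC, and Klf2 and Klf4 stay between 11.5 and 16.6 and between 4.50 and 10.1.

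The other Krüppel-like factor genes and the genes of the naive pluripotency network were set beside the 3 genes. Of 14 other Klf genes, 13 had enough peaks to be tested, 2 passed as higher (beside 8.38% of all genes) and none as lower (beside 10.8%) in ESC against MEF, a count near the background, and their median log2 difference was 0.02, beside -0.08 over all genes. The 2 were Klf8, at 1.18 (limma, adjusted p = 0.0179), and Klf12, at 0.82 (limma, adjusted p = 0.00932), both known as repressors. The other 11 ran from -0.69 for Klf17 (limma, adjusted p = 0.145, unadjusted p = 0.05) to 0.49 for Klf9 (limma, adjusted p = 0.105). Of 11 network genes, 8 passed as higher and 1 as lower, beside the same 8.38% and 10.8%, with a median of 1.14. The filter on low values took the mean over all samples, ESC included, so a gene high in ESC alone could enter through ESC. Zfp42, among the 8 higher genes, entered in this way. Its mean scaled numbers were 1.60 in MEF, 2.25 at DAY3, 3.90 at DAY6 and 3.08 at DAY9, all below the filter of 5. In ESC the mean was 15.2. The genes behind the 8.38% and 10.8% were filtered in the same way. Klf5, at 2.10, lay between Prdm14, a repressor of differentiation genes, at 1.99 (limma, adjusted p = 0.00118) and the nuclear receptor Nr5a2, at 2.56 (limma, adjusted p = 0.000460). Klf2, at 0.15, and Klf4, at 0.19, lay near Pou5f1, at 0.20 (limma, adjusted p = 0.512). The gene that passed as lower was Stat3, the LIF-responsive factor, at -1.0 (limma, adjusted p = 0.00704). The network list holds genes known for their role in these cells, the Klf list holds a gene family, and windows of neighbouring genes overlap.

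**Figure D4:**
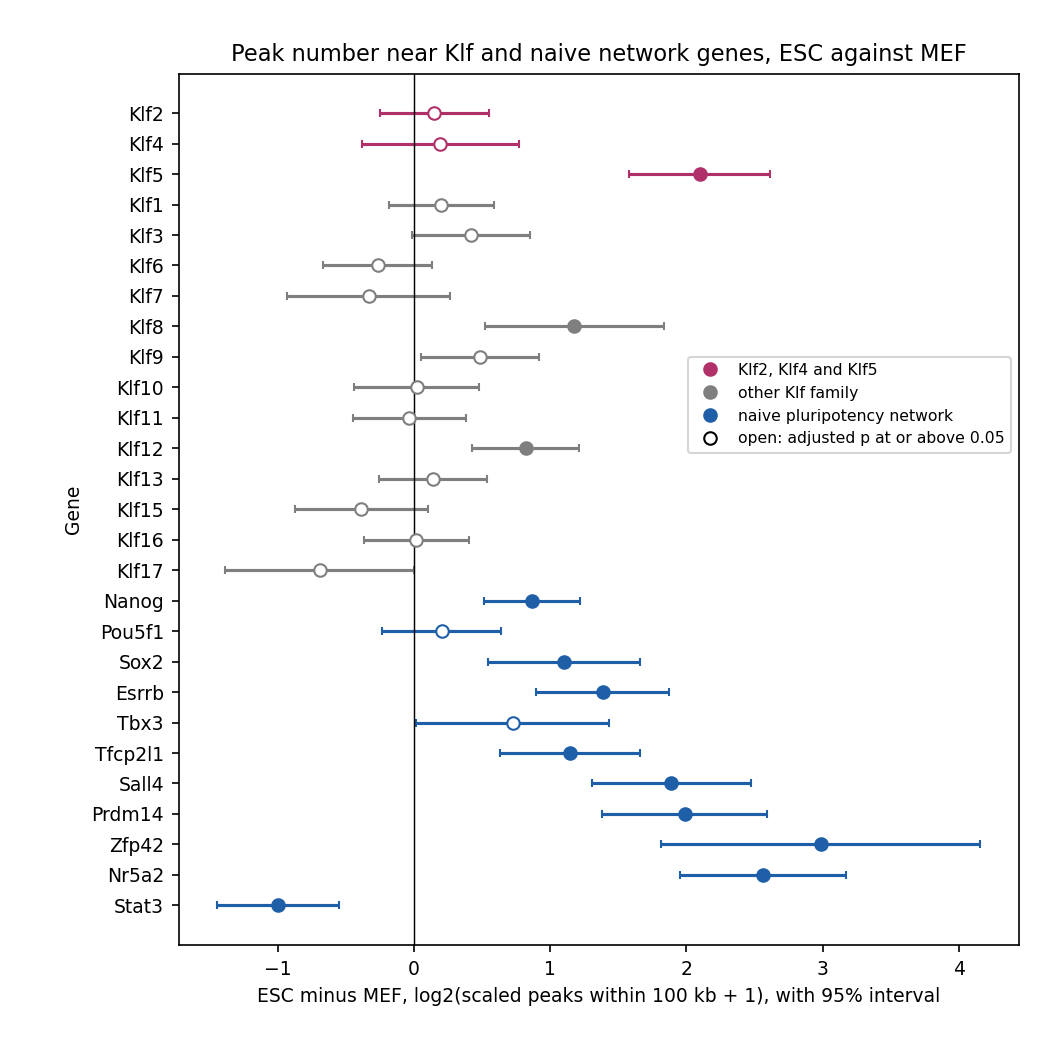
Points are the log2 differences between ESC and MEF in scaled peak number within 100 kb (x axis) for each gene (y axis), bars are 95% intervals from the fit, and filled points passed an adjusted p of 0.05. Klf5 at 2.10 stands with the upper network genes, and Klf2 at 0.15 and Klf4 at 0.19 have intervals that include 0.

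The genes whose scaled peak numbers were most like those of each member over the 8 samples, by Euclidean distance on the log2 scale and on other chromosomes, were Sall1 (0.66), Elavl2 (0.75) and Gpbp1 (0.84) for Klf5, Nfxl1 (0.21), Zar1 (0.34) and Trim12a (0.41) for Klf4, and Nfyb (0.32), Tubb6 (0.32) and Cfap300 (0.34) for Klf2. For Sall1 the scaled numbers were 3.68 and 4.27 in MEF, 6.76 at DAY3, 9.47 and 11.6 at DAY6, 12.7 at DAY9, and 18.2 and 13.9 in ESC. Sall1 was chosen for its likeness to Klf5 in these samples, so the shared order of stages is not a result.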

How the data were processed

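ATAC-seq, which marks open chromatin by transposase insertion, was listed as peaks for 10 libraries of 50000 cells each. The submitters' processing notes name Bowtie2 2.3.2, MACS2 2.1.1, deepTools 2.3.6 and mm10, with no role or order. Peaks were listed per library. The deposited columns hold a score, the authors' fold enrichment (a ratio to local background), and the −log10 of the p-value and of the q-value, of which the lowest −log10 p was 5.00. The summit column held a placeholder and no positions, so windows of 500 bp on peak middles, chosen after seeing the data, replaced planned summit windows. Shifting of reads, duplicate removal and mitochondrial filtering are not given in the sources used here. Many rows stand for an interval with several summits, of which 1 row was kept.

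Peaks overlapping by at least 1 bp were merged across libraries. Gene spans and promoters came from RefSeq on GRCm38.p6. Klf2 and Klf4 matched the promoter table. Pileup was recovered from the fold and −log10 p to compare libraries with counting noise. Peaks within 100 kb of each gene were scaled to the mean list length, filtered at a mean of 5, and tested with limma (variance trend, Benjamini-Hochberg over 17324 genes, called at 0.05) on log2(value + 1), with 8 samples in 1 fit, because the DAY3 and DAY9 pairs were averaged. In simulated data for ESC against MEF on 17324 genes, 63 of 100 2-fold and 100 of 100 4-fold changes were recovered, with 9 other calls. The simulation gave every gene and sample the same normal spread on the log2 scale. The recovery therefore need not hold for windows with few peaks. Nothing in the labels says that the libraries of a stage came from separate cultures, so p-values may measure technical spread only. Named elements were, per gene, the one at the start, up to 6 gained, 3 transient and 3 lost by score percentile, with others given by ranges or named after their values were seen. The members and lists were chosen with earlier results of these data known. Alternatives were a 50 kb window, the top 50% and equal numbers of peaks, no scaling, a pseudocount of 0.5, no filter, no peaks inside genes, 10 separate libraries, a replicate block, no variance trend and leaving out each library.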

Additional observations from a re-analysis of the deposited data

How the results depend on the processing

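The higher peak number at Klf5 in ESC against MEF passed the test without each library in turn (log2 difference 1.97 to 2.22, limma, adjusted p = 0.000456 to 0.00337) and under the other 10 alternatives (2.09 to 2.67, adjusted p = 5.69e-05 to 0.0237). The Klf4 difference turned to -0.44 at 50 kb and ranged from -0.10 to 0.49 without single libraries. Klf5 in DAY9 against MEF passed at 50 kb (1.23), with the top 50% (1.75), with separate libraries (1.10) and without DAY9 replicate 1 (range without single libraries 0.98 to 1.21). Klf5 in DAY6 against DAY3 turned to -0.055 with the top 50%, and in DAY3 against MEF passed there (1.47). The causes were not tested. With the top 50%, lost elements numbered 1 at Klf2, 0 at Klf4 and 0 at Klf5, and gained ones 4 at Klf2. With equal numbers of peaks Klf2 gained 5 and Klf5 gained 9 and lost 0. At 50 kb Klf4 gained 1 and Klf5 gained 7 and lost 0. Without single libraries Klf2 gained 9 to 11 and lost 4 to 7, Klf4 gained 5 to 7 and lost 2 to 6, and Klf5 gained 15 to 24 and lost 1 to 2. Of 34 named elements, 13 were listed in another number of libraries with equal numbers of peaks and 24 with the top 50%. Same-numbered libraries did not deviate together (correlations -0.09 to 0.02), so no pairing by number was seen. The DAY3 and DAY9 pairs differed by little more than counting noise, so correlations with those stages could hardly have shown pairing. Whether same-numbered libraries shared a culture or preparation is not decided by these values. With a replicate block on 10 libraries the Klf5 differences were 1.10 for DAY9 against MEF, 0.78 for DAY3 against MEF and 1.00 for ESC against DAY9. All passed, but the block and the separate libraries both count the DAY3 and DAY9 pairs as 2 samples each. The paired element counts were 7.5 lost at Klf2, 4.5 lost at Klf4, and 23 gained and 2 lost at Klf5.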
